A study of Danio rerio with 6 samples.

Results

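The haemoglobin genes of zebrafish were described in RNA sequencing libraries of GFP-positive cells from Tg(mpx:eGFP) fish at 48 hours post-fertilisation. The genes were the rows of the deposited count tables that carried 1 of 10 names: hbae1.1, hbae1.3, hbae3 and hbae5 of the alpha kind, and hbbe1.1, hbbe1.2, hbbe1.3, hbbe2, hbbe3 and hbba1 of the beta kind. Because hbae1.3 and hbba1 each named 2 rows, 12 of 59330 rows were taken, 5 alpha and 7 beta. The tables hold 32520 Ensembl genes and 26810 unnamed gene models. Haemoglobin rows were tested where they had enough counts, which left 10 of the 12 among 16637 rows tested.

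The 3 znf711 MO libraries were labelled as znf711 knockdown with a znf711 morpholino, an antisense oligonucleotide that blocks translation or splicing of its target. The 3 control libraries were labelled wild type with the treatment control, and no source used here says what those embryos received. All 6 carried the reporter, in which the promoter of mpx, the neutrophil peroxidase gene, drives green fluorescent protein, and the labels call the cells neutrophils. The design text of the series names a znf711-/- line, whereas the sample labels, which were followed here, name a morpholino. Libraries were labelled as biological replicates, and the number of embryos behind each is not given. How the GFP-positive cells were enriched is not given either.

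Haemoglobin carries oxygen in red blood cells as a tetramer of alpha and beta globin chains, each holding a haem group. Zebrafish use embryonic globin genes first and switch to adult genes during larval and juvenile life. Alpha and beta genes lie together, often in opposite directions, in a major locus and a minor locus. Red blood cells of fish keep their nucleus, and primitive red cells circulate at the stage sampled here.

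Of the 12 rows, 9 lay within 49.3 kb of GRCz11 chromosome 3, from 55098457 to 55147788, the major locus. In genome order they were both hbba1 rows, hbbe1.1, hbae1.1, hbbe1.2, a row named hbae1.3 (ENSDARG00000088330), hbbe1.3, the other hbae1.3 row (ENSDARG00000089124) and hbae3. The embryonic beta genes of this locus lay on the plus strand and the embryonic alpha genes on the minus strand. The row ENSDARG00000088330 carries the symbol hbae1.2 in the reference table of gene names, and it is called the hbae1.2 row from here on. The other 3 rows, hbbe3, hbae5 and hbbe2, lay within 14.1 kb of chromosome 12, from 20339413 to 20353541, the minor locus. There, hbbe2 lies inside the span of hbae5 on the opposite strand. Use of strand in the counting is not given, so it is not known whether reads from any shared stretch of this pair were told apart. Globin genes of 1 kind include near-identical copies, and how reads with several positions were counted is not given, so the counts of single copies are uncertain.

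Total counts were 1629804, 12093109 and 9550796 in znf711 MO replicates 1 to 3, against 7181804, 9311439 and 7635673 in control replicates 1 to 3. The shallowest library was znf711 MO replicate 1, where 8041 Ensembl genes were counted. Each other library had between 13434 and 16074. The neutrophil label was checked on 14 marker rows, 12 of which had counts in all 6 libraries. Their summed level was 3591, 13351.3 and 25286.1 CPM, counts divided by the library total and put on 1 scale, in znf711 MO libraries and 2563, 13213.2 and 14760.1 CPM in controls. It was lowest in replicate 1 of both groups.

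Haemoglobin transcripts were found in every library, and their share of the reads varied more within a group than between the groups. The 12 rows held 41439, 171857 and 28927 counts in znf711 MO libraries and 139910, 56935 and 31410 in controls. As a share of all counts this was 2.54, 1.42 and 0.303% in znf711 MO replicates 1 to 3, against 1.95, 0.611 and 0.411% in control replicates 1 to 3. The highest and the lowest share both belonged to the znf711 MO group, 8.40-fold apart in CPM, and the control values lay inside that range. The 95% Wilson interval was 2.52 to 2.57% for the highest library and 0.299 to 0.306% for the lowest, and no 2 of the 6 intervals overlapped. These intervals cover counting error only. In RNA of a cell mixture, fewer red blood cells and less haemoglobin RNA per cell cannot be told apart.

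The mean share was 1.42 ± 1.12% in znf711 MO libraries and 0.990 ± 0.836% in controls (SD, n = 3 each). The difference of the log2 shares was 0.39, a 1.31-fold ratio, with an exact two-sided permutation p of 0.9. With 3 libraries against 3, the smallest p this test can give is 0.1. The libraries with the most haemoglobin, replicate 1 of each group, were those with the least neutrophil signal. The part of this neutrophil signal in the haemoglobin values was not tested. The difference had a negative sign without znf711 MO replicate 1, at -0.27, or without control replicate 3, at -0.08.

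**Figure D1:**
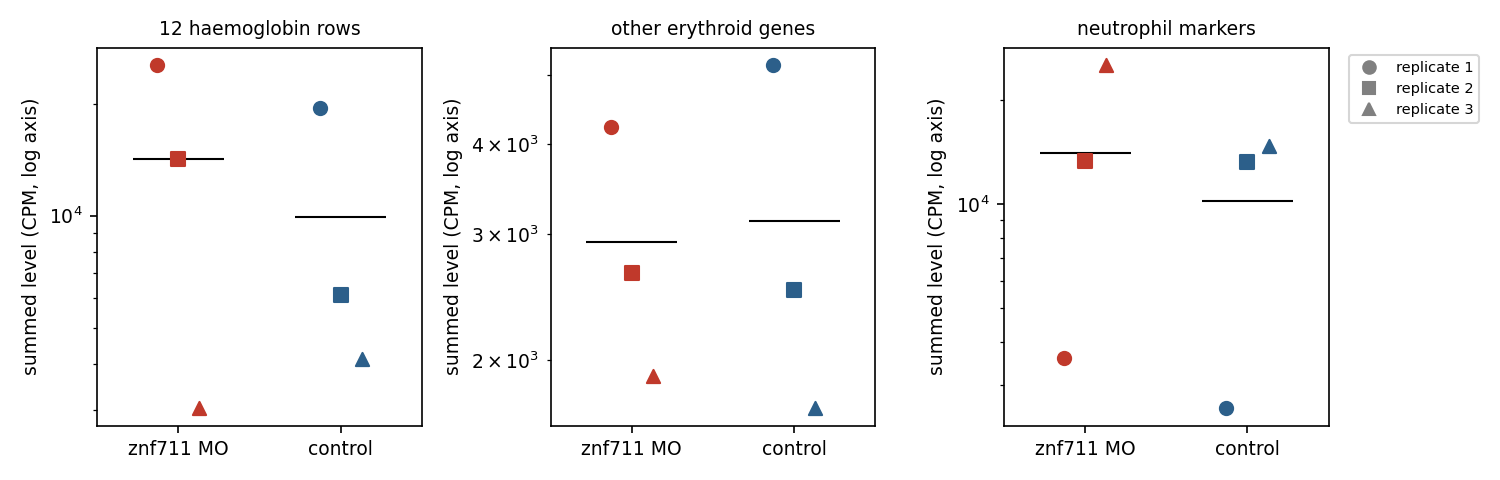
Summed level in each library, in CPM on a log axis. Panels show the 12 haemoglobin rows, 46 rows of other red blood cell genes with neighbours of the globin loci, and 14 neutrophil marker rows. Points are libraries, shapes replicate numbers and lines group means (n = 3 each). Haemoglobin spans 3029 to 25425.8 CPM in znf711 MO libraries and 4114 to 19481.2 CPM in controls, and the groups overlap in each panel.

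Levels between genes were compared by the deposited FPKM values, reads per kilobase scaled to the library. The alpha gene hbae3 led in every library, at 20833.3, 8740 and 2016 FPKM in znf711 MO libraries and 15765.0, 3913 and 2980 FPKM in controls. By raw count it ranked 2, 14 and 63 among Ensembl genes in znf711 MO libraries and 2, 29 and 37 in controls. The embryonic beta gene hbbe1.3 came next in every library, at 7102, 4609 and 1024 FPKM in znf711 MO libraries and 5405, 1941 and 1155 FPKM in controls. Rank 3 in every library was held by hbbe1.1, another embryonic beta gene. It stood at 1946, 3924 and 552.4 FPKM in znf711 MO libraries and 2216, 1722 and 807.2 FPKM in controls. The groups overlapped for each of these genes. All FPKM ranks here are of named rows alone. With the unnamed model at its place, described below with its limits, hbbe3 stood above hbbe1.1 in znf711 MO replicates 1 and 3, at 5385 and 744.5 FPKM. It stood below hbbe1.1 in znf711 MO replicate 2, at 2005 FPKM, and in controls, at 1025, 310.1 and 483.6 FPKM.

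Ranks 4 to 7 were exchanged between libraries. Over the 6 libraries, the hbae1.3 row ENSDARG00000089124 averaged 780.4 FPKM, hbbe3 597.1 FPKM, hbbe1.2 556.1 FPKM and hbae1.1 555.9 FPKM. These neighbours did not differ beyond their spread: hbbe3 held rank 4 in znf711 MO replicates 1 and 3, and rank 7 in control replicates 1 and 2. Rank 8 was held in every library by the hbae1.2 row, with a mean of 223.5 FPKM. The named rows of the minor locus genes hbbe2 and hbae5 averaged 18.4 and 1.52 FPKM. With the unnamed model at its place, described below, hbbe2 stood higher. It was at 1300, 289.4 and 58.2 FPKM in znf711 MO libraries and 736.8, 113.1 and 174.2 FPKM in controls. For 4 of the genes the FPKM values go with a length shorter than the listed one: 787 in place of 1860 bases for hbae3, 684 in place of 1150 bases for hbbe1.1 and hbbe1.2, and 1262 in place of 1765 bases for hbae5. Their order against other genes rests on those lengths.

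**Figure D2:**
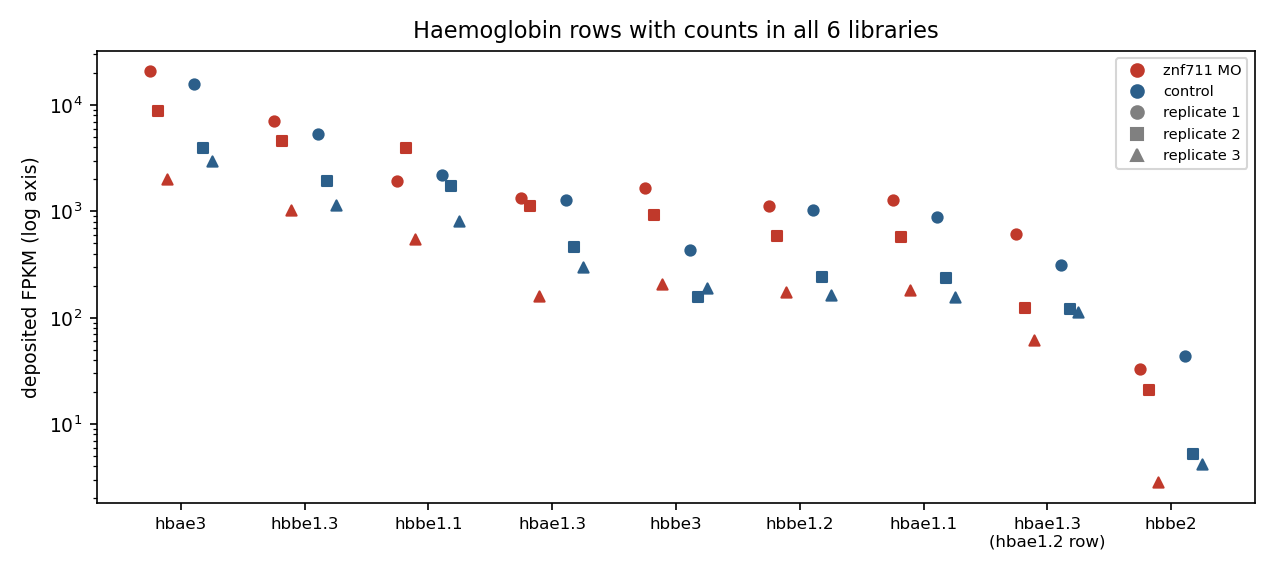
Deposited FPKM, on a log axis, of the 9 haemoglobin rows with counts in all 6 libraries, ordered by mean; each point is a library, red for znf711 MO and blue for control, and shapes are replicate numbers. Among these named rows, hbae3, hbbe1.3 and hbbe1.1 hold ranks 1 to 3 in all 6 libraries, and the groups overlap within each row. Unnamed models are left out.

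Adult haemoglobin was at or near 0. The adult beta gene hbba1 (ENSDARG00000097238) had 0 counts in each of the 3 znf711 MO libraries and 7, 0 and 0 counts in controls, and its other row (ENSDARG00000089087) had 0 in all 6. As a share of the beta counts hbba1 was 0% in each znf711 MO library and 0.0173, 0 and 0% in controls, with an exact two-sided permutation p of 1.0. That p was fixed in advance and decides nothing, because only control replicate 1 had a value above 0. The adult alpha gene hbaa1, next to hbba1, had 0 counts in each znf711 MO library and 159, 0 and 0 in controls. Another adult alpha row, si:ch211-5k11.8, which RefSeq also calls hbaa1.2, had 0 counts in each znf711 MO library and 30, 0 and 0 in controls. The adult genes hbaa2 and hbba2 had 0 counts in all 6. A count of 0 allows up to 3 counts, or 1.84, 0.248 and 0.314 CPM in znf711 MO libraries and 0.418, 0.322 and 0.393 CPM in controls. Adult rows, 6 in all, thus had 196 counts in control replicate 1 and 0 in the other 5 libraries.

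The balance of alpha and beta counts differed between the groups by less than its spread within them. The ratio of alpha to beta counts was 2.57, 1.27 and 1.52 in znf711 MO libraries, against 2.47, 1.39 and 1.86 in controls. In FPKM, the ratio was 2.03, 1.05 and 1.23 in znf711 MO libraries, against 2.0, 1.16 and 1.53 in controls. Replicate 1 had the highest ratio in both groups, and the groups overlapped. The difference of the log2 count ratios was -0.12 (exact two-sided permutation p = 0.8). It had a positive sign without control replicate 1, at 0.08, or without znf711 MO replicate 2, at 0.09. These ratios leave out the unnamed models at the places of hbbe3 and hbbe2, described below. With both counted as beta, the FPKM ratio was 1.43, 0.925 and 0.948 in znf711 MO libraries, against 1.75, 1.09 and 1.275 in controls. The groups again overlapped, and the difference of the log2 count ratios was -0.28 (exact two-sided permutation p = 0.5).

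Most of the haemoglobin counts came from 3 genes. Counts of hbae3 made up 64.5, 48.4 and 52.4% of the haemoglobin counts in znf711 MO libraries and 63.7, 50.4 and 57.0% in controls. Counts of hbbe1.3 made up 16.3, 18.9 and 19.7% in znf711 MO libraries and 16.2, 18.5 and 16.3% in controls, the narrowest relative range among the rows with counts in every library. Counts of hbbe1.1 made up 5.23, 18.9 and 12.5% in znf711 MO libraries and 7.78, 19.3 and 13.4% in controls. Its share was lowest in replicate 1 and highest in replicate 2 of both groups. The alpha genes hbae1.1 and hbae1.3 (ENSDARG00000089124) and the beta gene hbbe1.2 each held between 2.42 and 4.39%, and the hbae1.2 row between 0.475 and 1.496%.

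**Figure D3:**
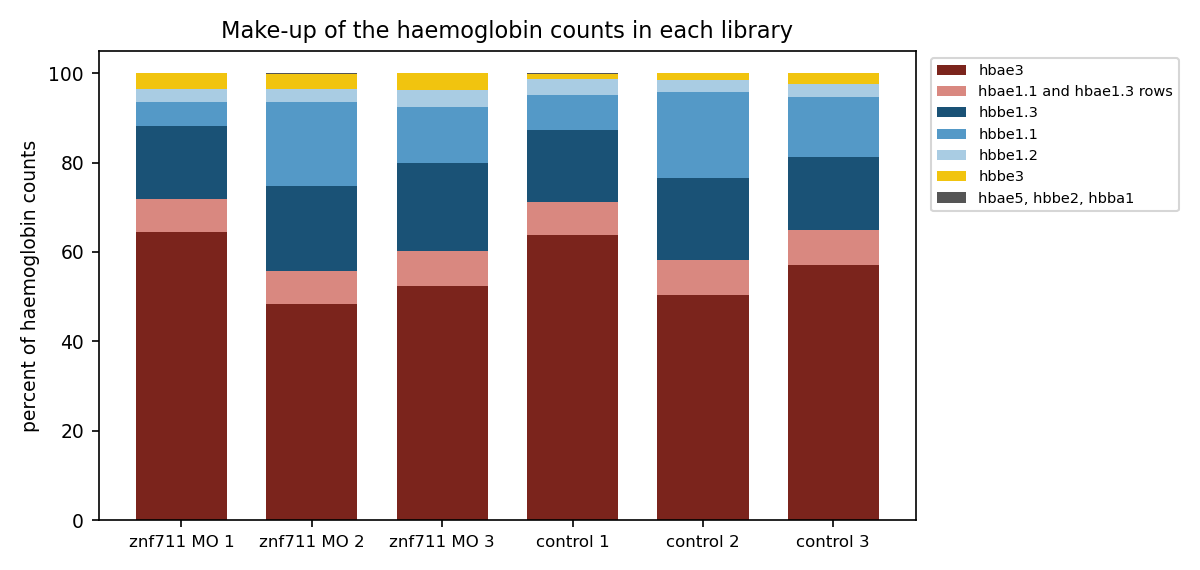
Share of each gene in the haemoglobin counts of each library, in percent, with znf711 MO libraries left of controls; each bar adds to all haemoglobin counts. hbae3 takes 48.4 to 64.5% of every bar, and the hbbe3 segment is 3.42 to 3.64% in znf711 MO libraries and 1.16 to 2.43% in controls.

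One gene of the minor locus, the embryonic beta gene hbbe3 (ENSDARG00000038147, chromosome 12, 20339413 to 20340543, minus strand), took a larger part of the haemoglobin counts in all 3 znf711 MO libraries. It had 1428, 5873 and 1052 counts in znf711 MO libraries and 1623, 775 and 762 in controls. This was 3.45, 3.42 and 3.64% of the haemoglobin counts in znf711 MO libraries, against 1.16, 1.36 and 2.43% in controls. The groups did not overlap, and the znf711 MO libraries lay close together. The mean was 3.50 ± 0.119% in znf711 MO libraries and 1.65 ± 0.680% in controls (SD, n = 3 each), a difference of 1.16 on the log2 scale or 2.24-fold. The exact two-sided permutation p was 0.1, the smallest that this design allows.

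This gene was singled out after its values were seen, and the p is given as a description. Among the 9 haemoglobin rows with counts in all libraries it was the only one whose share did not overlap between the groups. Over all 16637 rows tested, the count per haemoglobin count did not overlap for 3.4%, and it was higher in every znf711 MO library for 0.625%. Haemoglobin rows, unlike the other rows tested, are part of the sum they are divided by, and they rise and fall with it. Dividing by this sum adds its wide spread to rows that do not follow it. These percentages are thus only a rough background and not a like one for a haemoglobin share. For any 1 row, such a separation of 3 libraries from 3 has an exact two-sided permutation p of 0.1, and 9 rows were looked at. Leaving out any 1 library kept the difference of log2 hbbe3 shares between 0.95 and 1.48. Its sign could not turn, because the groups did not overlap. Summed endothelial markers also did not overlap between the groups, at 65.7, 195 and 176 CPM in znf711 MO libraries and 265, 245 and 231 CPM in controls, over 8 rows of which 5 had counts in all libraries. Skeletal muscle markers, 7 rows of which 5 had counts in all libraries, summed to 263, 121 and 104 CPM in znf711 MO libraries and 115, 13.9 and 45.3 CPM in controls. Of the 8 endothelial rows tested, 1 had levels that did not overlap on its own, against 7.44% of all rows tested. The summed markers of muscle, neutrophils, macrophages, thrombocytes, nerve and epidermis overlapped between the groups. The part of endothelial or muscle signal in the hbbe3 share was not tested.

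Further counts of the minor locus stood on an alternate scaffold of chromosome 12 in the same build, under gene models without a name. The model XLOC_067861 (20333043 to 20334184 on the scaffold, minus strand, 535 bases) lies at the place that hbbe3, listed at 525 bases, has in the gene order of chromosome 12. It had 3240, 6990 and 2732 counts in znf711 MO libraries and 2286, 755 and 1199 in controls. Of the counts on hbbe3 and this model together, the model held 69.4, 54.3 and 72.2% in znf711 MO libraries and 58.5, 49.4 and 61.1% in controls. With the models at the places of hbbe3 and hbbe2 added to the haemoglobin counts, hbbe3 with its model held 10.2, 7.12 and 11.8% in znf711 MO libraries, against 2.70, 2.63 and 5.88% in controls. Each znf711 MO library again lay above each control (exact two-sided permutation p = 0.1). The match to hbbe3 rests on order, strand and length alone. Since the counting of reads with several positions is not given, the same reads may stand under hbbe3 and the model. The separation with the model is thus not an independent observation.

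The model at the place of hbbe2, another embryonic beta gene of this locus, gave no such separation. Its match to hbbe2 rests on order, strand and length alone. For that order, hbae5, whose span holds hbbe2, was placed by its end and not by its start. The named row hbbe2 had 32, 150 and 16 counts in znf711 MO libraries and 185, 29 and 19 in controls. The model XLOC_067862 had 1144, 1798 and 293 counts in znf711 MO libraries and 2758, 556 and 719 in controls, between 92.3 and 97.4% of the counts on both. Together they made up 2.57, 1.08 and 0.967% of the haemoglobin counts in znf711 MO libraries and 2.03, 1.004 and 2.21% in controls, and the groups overlapped (exact two-sided permutation p = 0.9). The embryonic alpha gene hbae5 had 0, 94 and 0 counts in znf711 MO libraries and 13, 18 and 0 in controls.

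**Figure D4:**
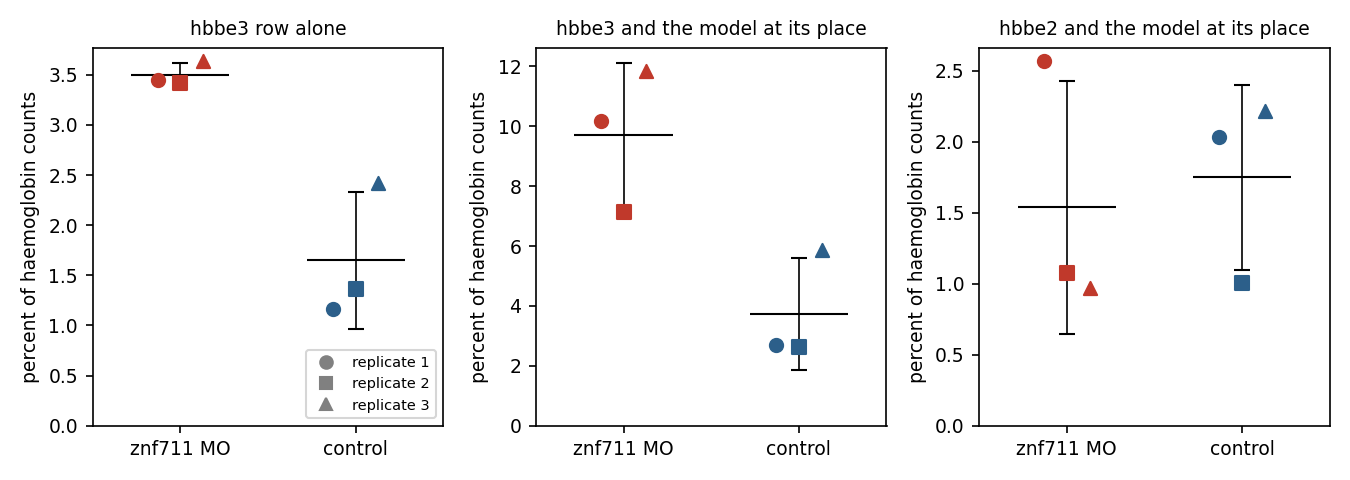
Percent of the haemoglobin counts on hbbe3 (left), on hbbe3 with the unnamed model at its place (middle) and on hbbe2 with the model at its place (right); points are libraries, lines the mean and bars the SD (n = 3 each). The znf711 MO libraries lie above all controls in the left panel, at 3.42 to 3.64% against 1.16 to 2.43%, and in the middle panel, and the groups overlap in the right panel.

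No haemoglobin gene passed the threshold in the comparison of levels across libraries. Of the 10 rows tested, 0 were called by edgeR's quasi-likelihood test at an adjusted p under 0.05, where 0.0% of all rows tested were called higher and 0.0% lower. DESeq2 also called 0 of the 10, and 0.698% of the rows to which it gave an adjusted p. In the edgeR fit the common coefficient of variation between replicates was 1.09, so differences of moderate size could go uncalled. At an unadjusted edgeR p under 0.05 there was 1 haemoglobin row, hbbe3, where 1.05% of all rows stood. Its level after TMM scaling, which sets libraries level by a trimmed mean of gene ratios, was 766, 550.5 and 102 CPM in znf711 MO libraries and 192, 95.3 and 124 CPM in controls. Replicates 1 and 2 of the znf711 MO group lay above all controls and replicate 3 within their range. The log2 fold change was 1.79 ± 0.61 (SE), with an edgeR adjusted p of 0.9999.

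All 10 tested rows had a log2 fold change above 0, as did 44.3% of all rows tested. Among the 10, hbae5, at 1.24, had znf711 MO counts in replicate 2 alone. The median was 0.47 over the haemoglobin rows and -0.12 over all rows tested. The rows with the most counts had log2 fold changes of 0.48 ± 0.73 for hbae3, 0.59 ± 0.63 for hbbe1.3 and 0.46 ± 0.62 for hbbe1.1 (SE). The hbae1.1 row stood at 0.67 ± 0.67 and hbbe1.2 at 0.42 ± 0.67. Each had an edgeR adjusted p of 0.9999, and none of the 9 rows with counts in all libraries had levels that did not overlap between the groups, against 7.44% of all rows tested, 2.09% with every znf711 MO library above every control. The haemoglobin rows rise and fall together between libraries, so the 10 signs are not independent of each other. With znf711 MO replicate 1, 2 or 3 left out, the median was 0.04, 0.21 or 0.95, and with control replicate 1, 2 or 3 left out it was 1.29, 0.28 or 0.17. Without znf711 MO replicate 1 the log2 fold change was -0.30 for hbae3, -0.005 for hbae1.1 and -0.14 for hbbe1.2. Without znf711 MO replicate 2 it was -0.69 for hbbe1.1.

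**Figure D5:**
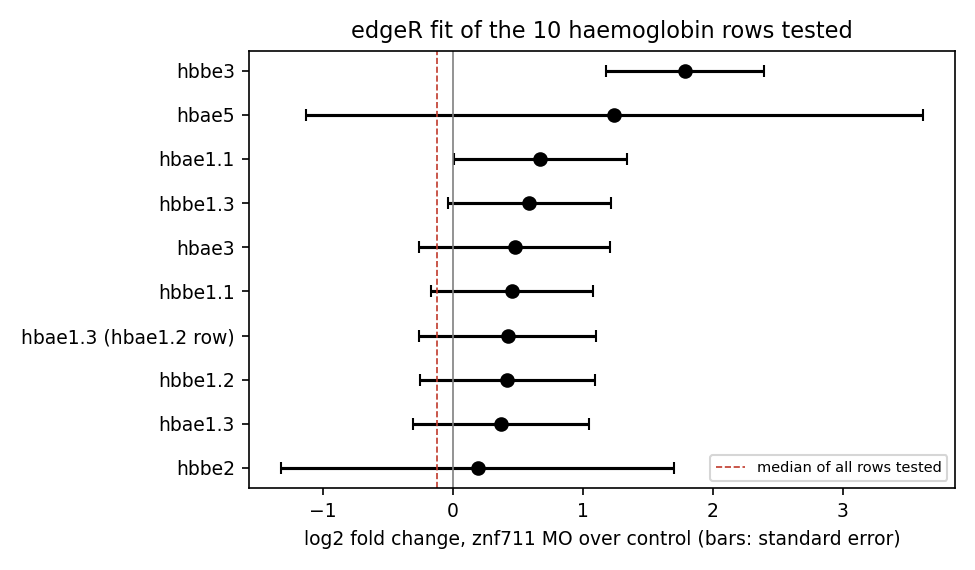
The log2 fold change, znf711 MO over control, of the 10 haemoglobin rows tested by edgeR; points are estimates and bars 1 standard error, and the dashed line is the median of all rows tested, -0.12. hbbe3 stands at 1.79, the other rows lie between 0.19 and 1.24, and no row passed the adjusted threshold.

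The levels of the haemoglobin rows followed each other across the 6 libraries. Among the 9 rows with counts in all libraries, Pearson's r of the log2 levels ran between 0.504, for hbbe1.1 with the hbae1.2 row, and 0.994, for hbae1.1 with hbbe1.2. The 6 points share the library's makeup and depth, and no test was made. The 5 other named genes whose log2 levels were most like the summed haemoglobin level, among 5382 Ensembl genes with at least 10 counts in every library, were soul3 (r = 0.991), psma6b (0.990), pax2a (0.984), taf9 (0.981) and psmd1 (0.980). The gene soul3 is named for a haem-binding protein family, psma6b and psmd1 encode proteasome subunits, pax2a a developmental transcription factor and taf9 a part of the general transcription machinery. The red blood cell genes cahz, a carbonic anhydrase, and prdx2, a peroxiredoxin, ranked 44 and 50 at r of 0.943 and 0.939, the highest among the ranked genes of the red blood cell list described next. Other genes of that list followed the haemoglobin level less closely: slc4a1a stood at 0.877 (rank 195), rhag at 0.462 (rank 2142), fech, the last enzyme of haem synthesis, at 0.188 (rank 3063) and tal1, a blood cell transcription factor and the lowest of them, at 0.0737 (rank 3373). The neutrophil gene mpx, whose promoter drives the reporter, stood at -0.867 and rank 5318.

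Other genes of the red blood cell, with neighbours of the globin loci, were described by a list of 46 rows. These genes covered haem synthesis, membrane and enzymes, regulators and neighbours of the globin loci. The summed level of all 46 rows was 4231, 2651 and 1902 CPM in znf711 MO libraries and 5163, 2507 and 1714 CPM in controls. It was highest in replicate 1 of both groups. The haemoglobin level was 6.01, 5.36 and 1.59 times this sum in znf711 MO libraries and 3.77, 2.44 and 2.40 times in controls. The groups overlapped, since znf711 MO replicate 3 lay below all controls and the other 2 znf711 MO libraries above them. The difference of the log2 ratios was 0.41 (exact two-sided permutation p = 0.6). It was 0.06 without znf711 MO replicate 1, 0.14 without znf711 MO replicate 2 and 1.02 without znf711 MO replicate 3, and 0.62 without control replicate 1. This p and those for the summed share, the chain ratio and the adult share each came to 1.0 after Benjamini-Hochberg adjustment over the 4. The p for the adult share was fixed in advance, because only control replicate 1 had a value above 0.

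Of the 40 rows of this list that were tested, 0 were called in either direction by edgeR, 0 stood at an unadjusted p under 0.05 and DESeq2 called 0. Of the 40, 15 had a log2 fold change above 0 and 25 below 0, with a median of -0.25. Haem synthesis genes stood at 8 above and 6 below 0, with a median of 0.21. Membrane and enzyme genes stood at 3 above and 7 below, with a median of -0.12. Regulators stood at 3 above and 9 below, with a median of -0.77. Neighbours of the globin loci stood at 1 above and 3 below, with a median of -0.36. Among these neighbours, aqp8a.1, at -0.64, lies on chromosome 12 near the minor locus, and the others lie near the major locus. The list was read against the same background of 0.0% called in each direction.

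The most abundant of these genes were prdx2, slc4a1a, rhag and cahz. The log2 fold change was -0.15 ± 0.45 for prdx2, -0.42 ± 0.53 for slc4a1a, the chloride and bicarbonate exchanger of the red cell membrane, -0.63 ± 0.47 for rhag, an ammonium channel of that membrane, and -0.06 ± 0.62 for cahz (SE). The red cell gene for the first enzyme of haem synthesis, alas2, had 1, 0 and 0 counts in znf711 MO libraries and 0 in each control, and was not tested. The master regulator gata1a and the Krüppel-like factor klf17 had log2 fold changes of 0.90 ± 2.21 and -0.91 ± 0.82 (SE). Each edgeR adjusted p among those tested was 0.9999.

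The remaining globin genes were low. Embryonic hbae1.2, hbae4 and hbae6 had no row under those names. Cytoglobin cygb1, of a globin family outside the red blood cell, had 0, 53 and 33 counts in znf711 MO libraries and 42, 48 and 0 in controls, a log2 fold change of -0.38 (edgeR adjusted p = 0.9999). Myoglobin mb, the oxygen store of muscle, had 0, 100 and 0 counts in znf711 MO libraries and 0, 1 and 0 in controls. Neuroglobin ngb, the second cytoglobin gene cygb2 and globin X, xgb, had 0 counts in all 6.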

How the data were processed

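For each library the authors deposited raw counts of reads per gene beside FPKM values, reads per kilobase and scaled to the library, per the file headers. Trimmomatic, HTSeq, HISAT2 2.0.5, DESeq2 1.16.1 and edgeR, and the build GRCz11, stand in the submitters' processing notes with no role or order. No source used here names the annotation release.

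The deposited counts went into edgeR 4.0.16 (R 4.3.3): filterByExpr with a minimum count of 10, TMM scaling, a robust quasi-likelihood fit with the group as its only term, and Benjamini-Hochberg adjustment over the 16637 rows kept (threshold 0.05). Standard errors were approximated from each log2 fold change and the root of its F statistic. Log2 fold changes are znf711 MO over control. Sums, shares and ratios were compared by exact two-sided permutation over the 6 libraries (scipy 1.17.1). Between genes, deposited FPKM values were compared. Correlations used log2 of CPM with a pseudocount of 1. A count of 0 allows up to 3 counts, and limits and 95% intervals cover counting error only. Total counts ran between 1629804 and 12093109 per library, so precision differs between libraries. Replicates are taken as labelled.

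Named were all listed members, other globin genes, the 4 red cell genes of highest mean level with alas2, slc4a1a, gata1a and klf17, mpx, and the 5 genes most like the summed haemoglobin level. The gene hbbe3, the unnamed models and any other gene were singled out after their values were seen. Members and gene lists were chosen with earlier results of these data known. Alternatives were DESeq2 1.42.0, 3 other scalings, 2 other filters, each library left out in turn, a replicate block, other denominators and, added after seeing the data, the unnamed models and both libraries numbered 1 left out. The code was tested on simulated data.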

Additional observations from a re-analysis of the deposited data

Results flagged for a closer look

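The unnamed gene model at the place of hbbe3 on the alternate scaffold of chromosome 12 holds counts outside the named rows. It had 3240, 6990 and 2732 counts in znf711 MO libraries and 2286, 755 and 1199 in controls, so each znf711 MO library lay above each control in raw counts, which are not scaled for depth. In CPM it stood at 1988, 578 and 286 in znf711 MO libraries and 318.3, 81.1 and 157 in controls. On that scale replicates 1 and 2 of the znf711 MO group lay above the highest control and replicate 3 within the control range. The edgeR log2 fold change was 2.25 ± 0.64 (SE), with an adjusted p of 0.9999.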

How the results depend on the processing

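The count of haemoglobin genes called stayed at 0, and so did that of the red blood cell list, under all 13 alternatives of the fit. Over all rows, DESeq2 called 140 and edgeR without the filter on low counts called 2, against 0. Leaving out single libraries gave 0 to 2 calls, 1 without control replicate 1 and 2 without znf711 MO replicate 3. The cause was not tested. The log2 fold change of hbbe3 kept its sign under all 13 alternatives, between 1.24 and 2.26, as did that of hbbe1.3, between 0.16 and 1.16. With single libraries left out, the log2 fold change ran from -0.005 to 1.47 for hbae1.1, -0.89 to 0.89 for the hbae1.2 row, -0.17 to 0.92 for hbae1.3, -0.30 to 1.27 for hbae3, -6.16 to 1.97 for hbae5, -0.69 to 0.93 for hbbe1.1, -0.14 to 1.31 for hbbe1.2 and -0.30 to 1.69 for hbbe2. Likewise, the difference of log2 haemoglobin shares ran from -0.27 to 1.27 and that of the chain ratios from -0.42 to 0.09. The sign turned without znf711 MO replicate 1 for hbae1.1, the hbae1.2 row, hbae3, hbbe1.2 and hbbe2, without znf711 MO replicate 2 for hbae1.3, hbae5, hbbe1.1 and hbbe2, and without control replicate 2 or 3 for hbbe2. For hbae5, all znf711 MO counts lay in replicate 2, so the -6.16 without it sets only counts of 0 against controls. For the other rows the cause was not tested. The hbbe3 share difference ran from 0.95 to 1.48 under 10 alternatives, at 0.96 without both libraries numbered 1 and 1.46 with the unnamed models. With libraries left out, the sign of this difference could not turn, because the groups did not overlap. The depth of znf711 MO replicate 1 limits the rows of low count.

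Same-numbered libraries deviated together with correlations of 0.135, 0.112 and 0.0139, so the numbers were not taken as pairs, and not every library correlated best with its own number. Even so, the haemoglobin share, the chain ratio and the hbbe1.1 share each had the same order of numbers in both groups. With the replicate block the log2 fold change was -0.085 for the hbae1.2 row, -0.48 for hbae5 and 1.46 for hbbe3, and 0 haemoglobin genes were called. The block's exact sign-flip test gave p = 0.75 for the haemoglobin share, 0.5 for the chain ratio and 0.25 for the hbbe3 share, the smallest p that 3 pairs allow. For the hbbe3 share this outcome was fixed in advance, because the groups did not overlap.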

Other observations

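The difference in hbbe3 share between libraries of the same number, znf711 MO minus control, was 2.29, 2.06 and 1.21 percentage points for numbers 1, 2 and 3. Any matching of the libraries would give positive differences, because each znf711 MO share of hbbe3 lay above each control share. For hbbe1.1 it was -2.55, -0.38 and -0.95 points, and its share differed more between numbers than between groups. The difference was also above 0 for all 3 numbers for hbae1.1, at 0.32, 0.12 and 1.40 points, and for hbbe1.3, at 0.11, 0.40 and 3.34 points, and the groups overlapped for both. The other rows with counts in all libraries had differences of both signs. Among the neighbours of the major locus was nprl3, whose introns hold the distal globin enhancer in vertebrates. After TMM scaling it stood at 129, 42.5 and 27.6 CPM in znf711 MO libraries and 45.4, 14.9 and 13.7 CPM in controls. Its log2 fold change was 1.42 ± 0.78 (SE), with an edgeR adjusted p of 0.9999. Of the tested neighbours of the globin loci, only nprl3 stood above 0, and 3 stood below. The level of nprl3 was highest in replicate 1 of both groups, and the groups overlapped. A minor locus row of chromosome 12 named zgc:163057, which the reference table of gene names calls hbae4, had 0, 127 and 9 counts in znf711 MO libraries and 242, 30 and 94 in controls. The unnamed model at its place on the alternate scaffold had 52, 70 and 3 counts in znf711 MO libraries and 295, 102 and 90 in controls.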
